A study of Mus musculus with 27 samples.

Results

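The genes described here are 10 targets of the transcription factor p53 that act in cell death: Bax, Bbc3, Pmaip1, Perp, Fas, Tnfrsf10b, Aen, Apaf1, Eda2r and Trp53inp1. They were chosen by name as pro-apoptotic p53 targets and matched by symbol to the Ensembl IDs of the count table, where they were 10 of 48440 genes. All 10 passed the filter on low counts, which left 18684 genes for testing. The study sequenced RNA of primary mouse lung fibroblasts (strain C57BL/6, wild-type), cultured at 3% oxygen, in 9 groups of 3 libraries each. Cells received 3 uM KU60019, which inhibits ATM, a kinase of the DNA damage response, or the solvent DMSO, for 15 or 35 d. In another 4 groups the KU60019 or the DMSO was taken away after 15 or 35 d and the cells were harvested 20 d later. Cells of the remaining group were irradiated with X-rays (10 Gy, no inhibitor) and collected 10 d afterwards, as the positive control for senescence. The library titles give a running number and 1 of 3 numbers that recur in every group, as in S1_705, S2_715 and S3_716 for DMSO at 15 d, and values are listed below in that order. No source used here says what the recurring numbers stand for, so p-values measure the spread between these samples, which may be technical.

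p53 is a transcription factor that is stabilised after DNA damage, in part by ATM, which phosphorylates both p53 and the proteins that degrade it. Its death targets act at separate steps. Bax permeabilises the outer mitochondrial membrane, and Bbc3 (PUMA) and Pmaip1 (NOXA) are BH3-only proteins that neutralise the pro-survival BCL2 family. Cytochrome c released from mitochondria assembles with Apaf1 into the apoptosome, which activates caspase 9. Fas, Tnfrsf10b (the mouse TRAIL receptor) and Eda2r are receptors of the tumour necrosis factor family at the cell surface. Perp is a membrane protein of the PMP22 family that also forms part of desmosomes in epithelia, Aen is a nuclear exonuclease, and Trp53inp1 is a nuclear protein that binds p53-modifying kinases and also acts in autophagy. Fibroblasts with active p53 commonly arrest or senesce rather than die.

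Promoter sequence from RefSeq (GRCm38.p6) was at hand for 6 of the members, as 9 windows of the 250 bases before an annotated start. Windows were searched on both strands for a pair of adjoining p53 consensus decamers with at most 3 mismatches of 20, since p53 binds such pairs. Such a pair stood in 5.32% of 32851 promoter windows of all genes and in 1 window each of Bbc3, Bax and Aen. A single exact decamer stood in 7.13% of all windows and in 2 of the 9 member windows, those of Bax and Aen. A match is a description of letters, and no binding was measured. The sequences are shown because these 3 are the members whose windows held a pair, and capitals mark it. The Bbc3 window lies at chr7:16309333-16309582 on the plus strand, with the pair at chr7:16309486-16309505, centred 87 bases before the start. The Bax window lies at chr7:45466899-45467148 on the minus strand, with the pair at chr7:45467090-45467109, centred 201 bases before the start. Of Aen, whose window overlaps annotated exons, only the 30 bases around the pair at chr7:78895937-78895956 on the plus strand are given.
Bbc3: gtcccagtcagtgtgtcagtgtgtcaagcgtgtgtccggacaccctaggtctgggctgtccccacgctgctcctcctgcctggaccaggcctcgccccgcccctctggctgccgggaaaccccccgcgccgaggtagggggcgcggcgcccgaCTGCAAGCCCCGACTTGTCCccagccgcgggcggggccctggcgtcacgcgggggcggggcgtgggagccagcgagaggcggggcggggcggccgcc
Bax: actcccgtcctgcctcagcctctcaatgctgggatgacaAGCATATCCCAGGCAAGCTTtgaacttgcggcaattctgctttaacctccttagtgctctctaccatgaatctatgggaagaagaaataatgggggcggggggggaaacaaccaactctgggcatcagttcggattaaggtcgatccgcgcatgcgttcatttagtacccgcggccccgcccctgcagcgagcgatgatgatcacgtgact
Aen: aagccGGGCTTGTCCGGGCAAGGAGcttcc

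All 10 are protein-coding genes, at these GRCm38 (mm10) positions. Bax lies at chr7:45461697-45466898, Bbc3 at chr7:16308393-16318205 and Aen at chr7:78895854-78911209. Perp lies at chr10:18845020-18857073 and Apaf1 at chr10:90989311-91082770. Pmaip1 lies at chr18:66458533-66465565, Fas at chr19:34290666-34327772 and Tnfrsf10b at chr14:69767472-69784411. Eda2r lies at chrX:97333840-97377216 and Trp53inp1 at chr4:11156431-11174379. Bax shares 192 exon bases with the gene Gm45808 on the same strand. How reads there were assigned or left out is not known, and the Bax counts are uncertain to that extent. Fas and Apaf1 contain small RNA genes that share no exon base with them.

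Library totals ran from 20659745 to 50859493 counts, with a median of 31265114. Library S19_705, of the group with DMSO removed after 35 d, stood apart: its TMM factor was 0.694 against 0.879 to 1.12 in the other libraries, 0.265% of its counts lay in ribosomal RNA genes, and its mean correlation with its own group was 0.956. Library S2_715, of the 15 d DMSO group, had a rank correlation of level with gene length of -0.116, against 0.302 in S1_705 and 0.265 in S3_716. Both are given below beside the results they touch. This length trend also separated some groups. It was -0.123 to -0.023 with KU60019 for 15 d, 0.178 to 0.277 with DMSO removed after 15 d and -0.240 to -0.035 with KU60019 removed after 15 d. At 35 d it was 0.029 to 0.295 with DMSO and -0.108 to 0.024 with KU60019. After removal at 35 d the ranges overlapped, at -0.182 to -0.072 with DMSO removed and -0.212 to -0.063 with KU60019 removed. Irradiated libraries lay at -0.135 to 0.077, within the range of DMSO for 15 d except at the lower end. Over the 27 libraries, where libraries of a group share their treatment, its Pearson's r with the log2 level was -0.763 for Pmaip1, -0.688 for Bax and -0.657 for Perp. No member's call was lost when each library's length trend was removed, whereas some were gained and some signs of uncalled values turned, as given below and in the closing section. The summed level of 20 proliferation genes was 1754 to 2421 CPM (counts scaled to TMM-adjusted library sizes) with DMSO removed after 35 d, 67.2 to 363 in the other unirradiated groups and 47.4 to 56.0 after irradiation. All 10 fibroblast markers were detected in every group, with a sum of 10474 to 47792 CPM. Markers of lymphocytes summed to at most 2.06 CPM.

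Compared per length, in the deposited TPM values, which divide counts by gene length, Bax had the highest level of the 10, with a median over the 27 libraries of 228 TPM. Fas followed at 49.1, Aen at 21.2, Trp53inp1 at 14.7, Bbc3 at 11.7, Tnfrsf10b at 10.1 and Pmaip1 at 9.32 TPM. Apaf1 at 4.64, Eda2r at 4.44 and Perp at 0.966 TPM were the lowest. The members differed widely in how far their level moved between groups. The highest group mean of Perp was 27.7 times its lowest and that of Pmaip1 10.3 times, against 4.52 times for Bax, 3.97 for Fas, 3.28 for Trp53inp1, 2.72 for Tnfrsf10b, 2.38 for Aen and 1.96 for Bbc3. Eda2r at 1.62 times and Apaf1 at 1.43 times moved least.

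**Figure D1:**
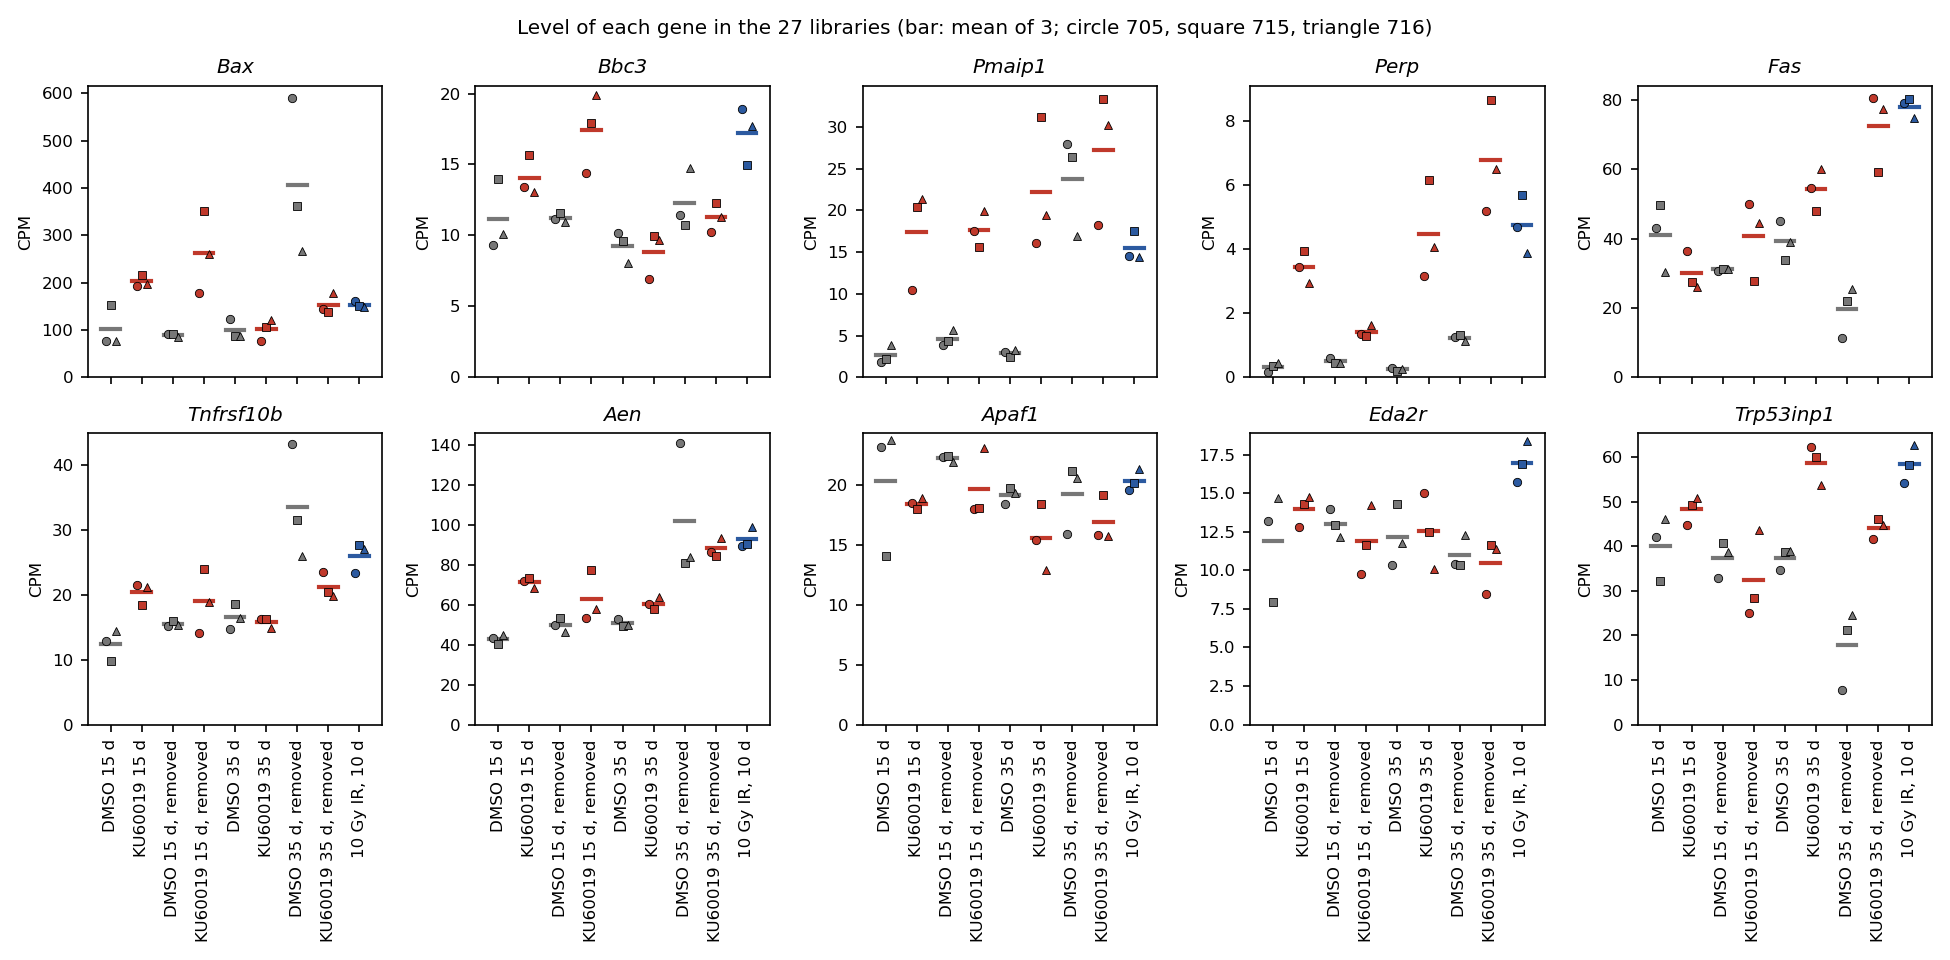
Level of each of the 10 genes in every library, in CPM on linear axes that start at 0 and whose ranges differ between panels, with the 9 groups along the horizontal axis, 1 point per library and a bar at the mean of the 3 libraries of a group. The lowest Pmaip1 and Perp points lie in the DMSO groups of 15 and 35 d, whereas Bax has its highest point, 589 CPM, after removal of DMSO at 35 d.

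In the order of the group means, Perp and Pmaip1 were highest with KU60019 removed after 35 d, Bax, Tnfrsf10b and Aen with DMSO removed after 35 d, Fas and Eda2r after irradiation, Bbc3 with KU60019 removed after 15 d, Trp53inp1 with KU60019 for 35 d and Apaf1 with DMSO removed after 15 d. Most neighbours in these orders had overlapping libraries: 8 of the 8 neighbouring pairs for Bbc3, 7 for Bax, Tnfrsf10b, Apaf1 and Eda2r, 6 for Pmaip1, Perp, Fas and Trp53inp1, and 5 for Aen. Bax ran from 89.7 ± 3.405 CPM (SD, n = 3) with DMSO removed after 15 d to 406 ± 166 (SD, n = 3) with DMSO removed after 35 d. Trp53inp1 ran the other way across the 35 d groups, from 58.7 ± 4.39 CPM (SD, n = 3) with KU60019 to 17.9 ± 8.899 (SD, n = 3) with DMSO removed. Fas ran from 19.6 ± 7.41 CPM (SD, n = 3) with DMSO removed after 35 d to 78.01 ± 2.79 (SD, n = 3) after irradiation.

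After 15 d of KU60019, 5 of the 10 genes were higher than with DMSO and none was lower. Perp was 10.3-fold and Pmaip1 6.51-fold higher, Bax 1.99-fold, and Aen and Tnfrsf10b 1.67-fold and 1.65-fold. The background was 30.3% of all tested genes (13.2% higher) called, at a Benjamini-Hochberg adjusted p under 0.05 by edgeR's quasi-likelihood test. The median log2 fold change was 0.53 over the 10 genes and -0.02 over all genes tested. In bulk RNA, fewer cells of a type and less RNA per cell cannot be told apart.

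In the mitochondrial arm, the pore former Bax stood at 76.8, 152 and 76.7 CPM in the DMSO libraries and at 193, 217 and 198 CPM in the KU60019 libraries. The groups did not overlap, but DMSO library S2_715 lay well above the other DMSO libraries, and it is the library with the different length trend. The log2 fold change was 0.99 ± 0.28, adjusted p = 0.01004. Without S2_715 it was 1.403, whereas without S1_705 or S3_716 it was 0.82 or 0.82 and the call was lost (adjusted p = 0.0701 and 0.06204). When only the groups compared were fitted it was 0.96 and not called (adjusted p = 0.0507). With each library's length trend removed it was 0.86 (adjusted p = 0.0153). The BH3-only gene Pmaip1 stood at 1.83, 2.22 and 3.88 CPM with DMSO and at 10.5, 20.4 and 21.4 CPM with KU60019. Every KU60019 library lay above every DMSO library, by 2.70 ± 0.32, adjusted p = 2.62e-06 on the log2 scale. Bbc3, the other BH3-only gene, stood at 9.31, 14.01 and 10.1 CPM with DMSO and 13.4, 15.6 and 13.1 CPM with KU60019. Its groups overlapped through S2_715, and the difference of 0.34 ± 0.17 was not called (adjusted p = 0.145), but was 0.54 and called without that library (adjusted p = 0.0223). Apaf1, the apoptosome scaffold, differed by -0.14 ± 0.16 (adjusted p = 0.546).

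Among the receptors at 15 d, Tnfrsf10b stood at 12.9, 9.75 and 14.4 CPM with DMSO and 21.5, 18.4 and 21.2 CPM with KU60019, a rise of 0.72 ± 0.18, adjusted p = 0.00446 on the log2 scale with no overlap. With limma on log2(TPM + 1) this was 0.45 and the call was lost (adjusted p = 0.0714), and on log2(TPM + 0.1) 0.496 (adjusted p = 0.0776). Fas stood at 43.1, 49.6 and 30.4 CPM with DMSO and 36.5, 27.3 and 26.03 CPM with KU60019, overlapping, with a difference of -0.45 ± 0.24 (adjusted p = 0.154). Tnfrsf10b thus passed the test and Fas, with a fold change of the opposite sign, did not, and the difference between the receptors was not tested. Eda2r, the receptor for ectodysplasin A2, differed by 0.22 ± 0.19 (adjusted p = 0.413). The exonuclease gene Aen rose by 0.74 ± 0.16, adjusted p = 0.00122, from 43.3, 40.03 and 44.6 CPM to 71.8, 73.4 and 68.1 CPM. Its groups lay in separate ranges. Trp53inp1 differed by 0.27 ± 0.25 (adjusted p = 0.4402).

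Perp was barely counted with DMSO, at 0.153, 0.358 and 0.458 CPM, and stood at 3.45, 3.93 and 2.94 CPM with KU60019. All KU60019 libraries lay above all DMSO libraries, by 3.37 ± 0.32, adjusted p = 1.85e-07 on the log2 scale. Perp is best known from epithelia, so the epithelial and keratinocyte markers are given beside it. Of 10 such markers 4 could be tested and 2 of them rose at 15 d, Ivl and Krt19, and the list summed to 2.11 to 4.91 CPM with DMSO and 20.96 to 25.9 CPM with KU60019. Krt5 and Krt14 were at 0 in all DMSO libraries and Epcam in all KU60019 libraries. At 35 d the sums were 1.64 to 2.39 CPM with DMSO and 4.54 to 6.64 CPM with KU60019, and the highest sums, 29.1 to 76.2 CPM, lay with DMSO removed after 35 d, where Perp stood at 1.26, 1.32 and 1.12 CPM. Krt14 and Krt8 were at 0 in the latter group. With KU60019 removed after 35 d the sums were 6.33 to 9.66 CPM, with a Perp mean of 6.77 CPM. After irradiation the sums were 3.28 to 6.20 CPM, with a Perp mean of 4.74 CPM. With DMSO and KU60019 removed after 15 d the sums were 2.90 to 3.43 CPM and 2.50 to 5.70 CPM. The part of these markers in the Perp values was not tested. Markers of endothelium fell at 15 d in 7 of 10 genes, with sums of 36.6 to 96.1 CPM with DMSO and 13.99 to 16.8 CPM with KU60019. Of 9 tested macrophage markers 1 rose and 6 fell, with sums of 51.2 to 109.9 CPM and 43.2 to 64.96 CPM, and of 10 fibroblast markers 1 rose and 4 fell, with sums of 21953 to 30346 CPM and 11089 to 12981 CPM. The part of these lists was not tested either.

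After 35 d of KU60019, Pmaip1 and Perp were higher than with DMSO for 35 d and the other 8 genes were not called. The background was 18.1% of all tested genes (9.70% higher), and the median log2 fold change was 0.15 over the 10 genes and -0.01 over all genes. Pmaip1 stood at 3.02, 2.48 and 3.299 CPM with DMSO and 16.1, 31.1 and 19.4 CPM with KU60019, a log2 fold change of 2.91 ± 0.32, adjusted p = 2.11e-06. Perp stood at 0.298, 0.189 and 0.248 CPM and 3.15, 6.13 and 4.07 CPM, a log2 fold change of 4.17 ± 0.33, adjusted p = 3.63e-08. In both genes the lowest KU60019 library lay above the highest DMSO library.

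Bax was not called at 35 d. It stood at 124, 86.5 and 87.00 CPM with DMSO and 77.4, 106 and 122 CPM with KU60019, with a log2 fold change of 0.035 ± 0.28 (adjusted p = 0.948) whose sign differed between settings. Trp53inp1 was at 34.8, 38.7 and 38.9 CPM with DMSO and 62.3, 59.99 and 53.8 CPM with KU60019. Its libraries did not overlap, and the difference of 0.65 ± 0.25 missed the threshold (adjusted p = 0.0748) but passed it with DESeq2 (0.67, adjusted p = 0.0369) and with the length trend removed (0.83, adjusted p = 0.02398). Fas stood at 45.1, 33.7 and 38.9 CPM and 54.6, 47.98 and 59.99 CPM, also without overlap, with a difference of 0.47 ± 0.24 (adjusted p = 0.178). When only these 6 libraries were fitted, 5 members were called, Aen, Fas and Trp53inp1 in addition to Pmaip1 and Perp. Between settings the count of all genes called ran from 1932 to 4927, so the 5 cannot be read against the 18.1% of the model of all groups. Bbc3, Tnfrsf10b, Aen, Apaf1 and Eda2r had fold changes between -0.30 (Apaf1) and 0.26 (Aen). Schwann cell markers rose in 6 of 7 tested genes at 35 d, with sums of 3.39 to 5.47 CPM with DMSO and 12.5 to 115 CPM with KU60019, and 5.08% to 6.61% of the counts of the KU60019 libraries were mitochondrial, against 1.61% to 1.73% with DMSO. Of 10 fibroblast markers 2 rose and 5 fell. The part of these was not tested.

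The difference between the KU60019 effects at 35 d and 15 d was tested as an interaction. Tnfrsf10b was the 1 member called, with a difference of -0.79 ± 0.25, adjusted p = 0.0471, against 11.7% of all tested genes. It rested on little: the call was lost with the replicate number as a block (adjusted p = 0.0597) and without each of 11 of the 12 libraries in turn (adjusted p 0.0322 to 0.119 over all 12). The effect on Pmaip1 was 2.70 at 15 d and 2.91 at 35 d and that on Perp 3.37 and 4.17, and the difference was not called for either. For Bax, with effects of 0.99 and 0.035, it was not called (adjusted p = 0.123).

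**Figure D2:**
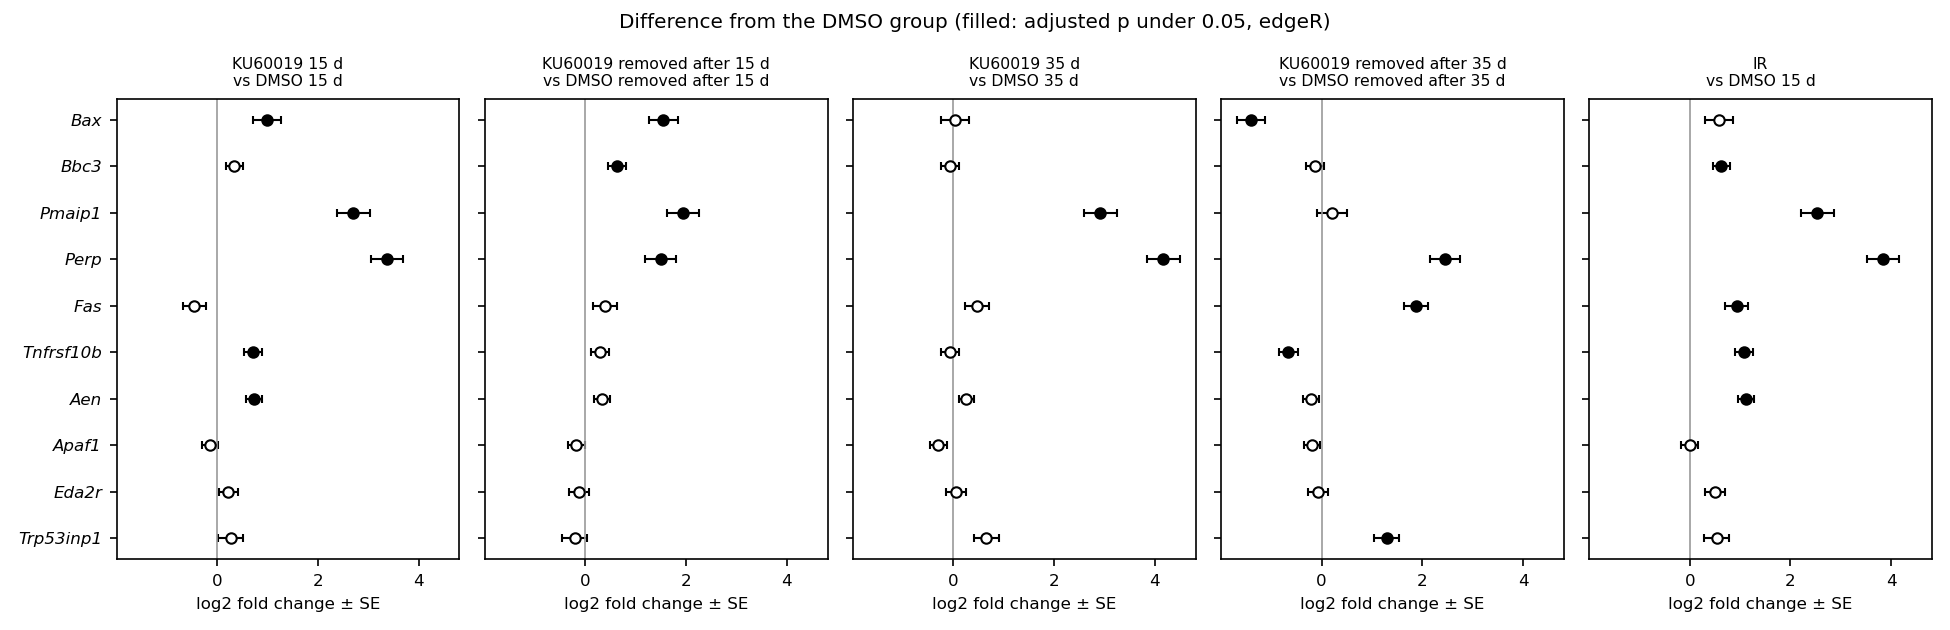
Log2 fold changes of the 10 genes with their standard errors in the 5 comparisons of a treated group with its DMSO group, where filled points passed the test at an adjusted p under 0.05. Perp lies above 0 in all 5, whereas Bax lies at 1.55 with KU60019 removed after 15 d and at -1.41 with KU60019 removed after 35 d.

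At 20 d after removal of a 15 d treatment, 4 of the 10 genes were higher in the cells that had received KU60019 than in those that had received DMSO, and none was lower. They were Bax (2.93-fold), Bbc3 (1.55-fold), Pmaip1 (3.83-fold) and Perp (2.83-fold). The background was 48.7% of all tested genes (24.7% higher) called, so 4 of 10 called is near that share. The median log2 fold change was 0.36 over the 10 genes and -0.01 over all genes.

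Bax stood at 91.6, 91.8 and 85.8 CPM with DMSO removed and at 178, 351 and 260.0 CPM with KU60019 removed, where S11_715 was the highest. The log2 fold change was 1.55 ± 0.28, adjusted p = 0.000326. Pmaip1 stood at 3.84, 4.32 and 5.65 CPM and 17.5, 15.6 and 19.9 CPM (1.94 ± 0.31, adjusted p = 0.000154). Both genes, and Bbc3, whose promoter window is printed above, had no overlap between the groups. Bbc3 stood at 11.1, 11.6 and 10.9 CPM and 14.4, 17.9 and 19.9 CPM (0.63 ± 0.17, adjusted p = 0.00527). On log2(TPM + 1) with limma its fold change was 0.049 and not called (adjusted p = 0.827), a scale on which the median of all genes was -0.47. Perp stood at 0.598, 0.456 and 0.442 CPM and 1.34, 1.27 and 1.63 CPM (1.501 ± 0.31, adjusted p = 0.000718), also without overlap. On log2(TPM + 1) it was 0.38 (adjusted p = 0.0814).

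Fas stood at 30.7, 31.4 and 31.2 CPM with DMSO removed and 50.1, 27.8 and 44.6 CPM with KU60019 removed (0.39 ± 0.24, adjusted p = 0.173). Tnfrsf10b (0.29 ± 0.18, adjusted p = 0.186) and Aen (0.33 ± 0.16, adjusted p = 0.0821), which had risen at 15 d of KU60019, were not called. Without S10_705, of the KU60019-removed group, both were called, at 0.46 and 0.44 on the log2 scale. With the length trend removed both were called too, Aen at 0.58 (adjusted p = 0.00453) and Tnfrsf10b at 0.43 (adjusted p = 0.0464). On log2(TPM + 1) Apaf1 (-0.63), Eda2r (-0.57) and Trp53inp1 (-0.73) were called as lower, or -0.15, -0.10 and -0.26 relative to the median of all genes. The test of the effect after removal against the effect before it called 1 member, Perp, against 25.4% of all tested genes. Its KU60019 effect was smaller after removal by -1.87 ± 0.44, adjusted p = 0.00445. In the KU60019 arm alone, compared after the data were seen, Perp was lower after removal than at 15 d by -1.28 ± 0.28, adjusted p = 0.00123, the 1 member called against 40.3% of all tested genes. In the DMSO arm alone no member was called, against 7.02% of all tested genes, with 1 member at an unadjusted p under 0.05 and 0 called by DESeq2. Schwann cell markers rose in 5 of 7 tested genes after KU60019 removal against DMSO removal, with sums of 8.52 to 71.4 CPM and 3.84 to 6.12 CPM, and 7 of 10 fibroblast markers fell. Their part was not tested.

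At 20 d after removal of a 35 d treatment the members split. Perp, Fas and Trp53inp1 were higher in the cells that had received KU60019, 5.48-fold, 3.66-fold and 2.44-fold, whereas Bax and Tnfrsf10b were lower, with log2 fold changes of -1.41 and -0.66. With 5 of 10 called, the count is near the background of 48.9% of all tested genes (24.4% higher and 24.5% lower). The median log2 fold change was -0.10 over the 10 genes and -0.00 over all genes.

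Fas stood at 11.3, 22.1 and 25.5 CPM with DMSO removed and 80.5, 59.2 and 77.4 CPM with KU60019 removed, a log2 fold change of 1.87 ± 0.24, adjusted p = 1.73e-06. Trp53inp1 stood at 7.82, 21.3 and 24.6 CPM and 41.6, 46.1 and 44.7 CPM (1.29 ± 0.26, adjusted p = 0.000248). In both genes S19_705, the library that stood apart, was the lowest, and no libraries of the groups overlapped. Perp stood at 1.26, 1.32 and 1.12 CPM and 5.17, 8.65 and 6.49 CPM (2.45 ± 0.29, adjusted p = 4.70e-07). Bax stood at 589, 361 and 267 CPM and 144, 137 and 178 CPM (-1.41 ± 0.28, adjusted p = 0.000275), and Tnfrsf10b at 43.2, 31.5 and 26.01 CPM and 23.5, 20.4 and 19.8 CPM (-0.66 ± 0.18, adjusted p = 0.00444). In both of these S19_705 was the highest. Without it, all 5 calls held, with log2 fold changes of 1.60 for Fas, 0.94 for Trp53inp1, 2.46 for Perp, -1.04 for Bax and -0.44 for Tnfrsf10b (adjusted p = 0.0463).

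In this comparison other scalings moved the median of all genes, to 0.29 with library size alone and to 0.33 on log2(TPM + 1). Tnfrsf10b lost its call on both scales, at -0.32 and -0.14, which is -0.61 and -0.47 relative to that median. Its call was also lost when only the groups compared were fitted (-0.62, adjusted p = 0.0688). Pmaip1, at 27.9, 26.4 and 16.9 CPM with DMSO removed and 18.3, 33.3 and 30.2 CPM with KU60019 removed, overlapped and was not called (0.20 ± 0.30, adjusted p = 0.595). Aen, Apaf1, Bbc3 and Eda2r had fold changes of -0.21, -0.19, -0.13 and -0.071, none called, all of which turned positive with library size alone. Macrophage markers summed to 24.4 to 35.2 CPM with DMSO removed and 87.9 to 122 CPM with KU60019 removed, where 3 of 9 tested rose. Schwann cell markers rose in 6 of 7 tested genes, with a median log2 fold change of 6.53 and sums of 11.3 to 20.5 CPM with DMSO removed and 10.1 to 40.2 CPM with KU60019 removed. All 20 proliferation genes were lower with KU60019 removed. The part of these lists was not tested.

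The test of the effect after removal against the effect at 35 d called 4 members, against 32.4% of all tested genes (16.6% lower). The KU60019 effect was smaller after removal for Pmaip1 (-2.71 ± 0.43, adjusted p = 7.10e-05) and Perp (-1.72 ± 0.43, adjusted p = 0.00471). It was larger for Fas (1.41 ± 0.34, adjusted p = 0.00313). For Bax the effect was lower by -1.44 ± 0.39 (adjusted p = 0.00814), from 0.035 at 35 d, which was not called, to -1.41 after removal. On log2(TPM + 1) this difference between the Bax effects was -0.53 and not called (adjusted p = 0.0871), or -1.21 relative to the median of all genes. For Perp the sign depended on the scale, since the value was 0.042 on log2(TPM + 1), or -0.63 relative to the median of all genes. Without S21_716, with DMSO removed, 7 members were called. Between settings the count of all genes called ran from 4664 to 8561, so the 7 cannot be read against the 32.4%. Much of the difference between the effects lay in the DMSO arm. There, 8 of 10 members differed between DMSO removed after 35 d and DMSO for 35 d, 6 higher and 2 lower, against 64.1% of all tested genes (31.5% higher and 32.6% lower). Pmaip1 rose by 3.01 ± 0.33, adjusted p = 1.23e-07, Perp by 2.32 ± 0.35, adjusted p = 7.33e-06, Bax by 2.03 ± 0.29, adjusted p = 3.86e-06, Tnfrsf10b by 1.01 ± 0.18, adjusted p = 5.87e-05 and Aen by 1.004 ± 0.16, adjusted p = 1.43e-05.

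Fas fell in that arm, from 45.1, 33.7 and 38.9 CPM to 11.3, 22.1 and 25.5 CPM (-0.99 ± 0.24, adjusted p = 0.00121), and Trp53inp1 fell from 34.8, 38.7 and 38.9 CPM to 7.82, 21.3 and 24.6 CPM (-1.05 ± 0.25, adjusted p = 0.00114). In both, every library with DMSO removed lay below every library with DMSO. Bbc3 was called as higher at 0.41 ± 0.17, adjusted p = 0.0434, but its sign turned on log2(TPM + 1), to -0.39 where the median of all genes was -0.68, and without S21_716 it was 0.26 and not called. Its call was also lost without S14_715 or S15_716 and with library size alone. On the TPM scale Aen (0.11) and Tnfrsf10b (0.13) were not called either. In the same arm all 20 proliferation genes rose, and 3 of 4 tested epithelial markers rose while 8 of 10 fibroblast markers fell. Their part in the changes of the members was not tested. In the KU60019 arm, compared after the data were seen, 1 member was called against 12.6% of all tested genes: Aen rose from 60.2, 57.7 and 63.7 CPM to 86.4, 84.4 and 93.4 CPM (0.54 ± 0.16, adjusted p = 0.0287), a call lost without S16_705, S17_715, S22_705 or S24_716 (adjusted p 0.0693 to 0.113).

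**Figure D3:**
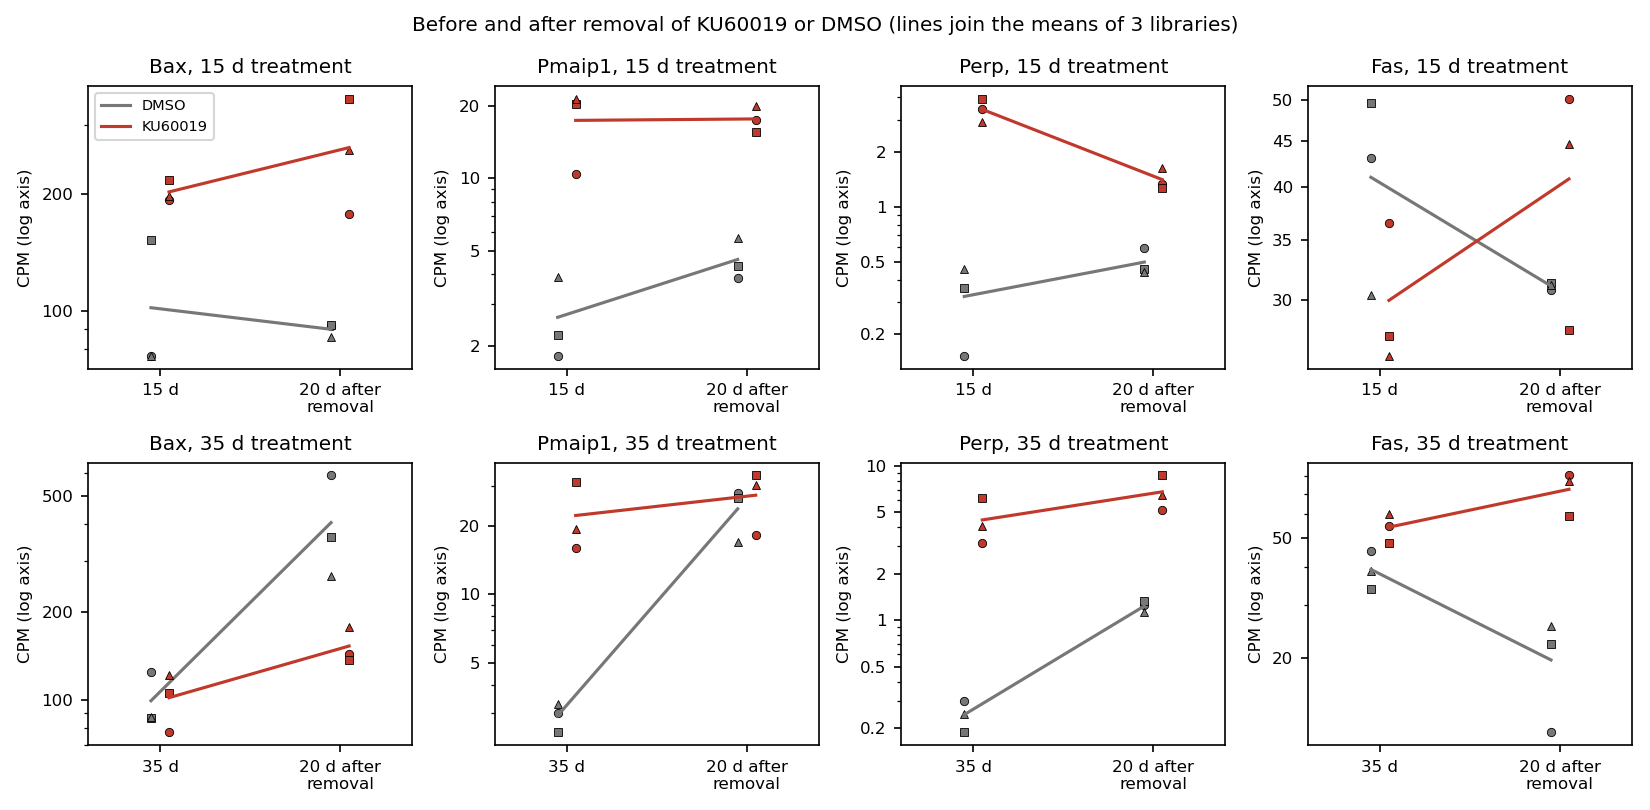
Levels of Bax, Pmaip1, Perp and Fas before and 20 d after removal of KU60019 or DMSO, in CPM on log axes whose ranges differ between panels, for 15 d (upper row) and 35 d (lower row) of treatment, with circles, squares and triangles for the 3 recurring numbers in the order of S1_705, S2_715 and S3_716, and lines joining the means of 3 libraries. In the lower row the DMSO lines of Bax, Pmaip1 and Perp rise and that of Fas falls, while the upper Perp line of KU60019 falls.

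Between the DMSO groups of 15 and 35 d themselves, 0 of 10 members were called by edgeR's quasi-likelihood test and 0 by DESeq2, with 1 at an unadjusted p under 0.05, against 1.56% of all tested genes.

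At 10 d after irradiation, 6 of the 10 genes were higher than with DMSO for 15 d and none was lower. The background was 30.9% of all tested genes (14.1% higher) called, and the median log2 fold change was 0.78 over the 10 genes and -0.01 over all genes. Perp was 14.3-fold higher and Pmaip1 5.79-fold, then Aen (2.18-fold), Tnfrsf10b (2.103-fold), Fas (1.904-fold) and Bbc3 (1.55-fold). Irradiated cells differ from the DMSO cells in irradiation, vehicle and time, which cannot be told apart here.

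Perp stood at 4.69, 5.67 and 3.86 CPM after irradiation (3.83 ± 0.32, adjusted p = 2.42e-08) and Pmaip1 at 14.5, 17.6 and 14.4 CPM (2.53 ± 0.32, adjusted p = 4.91e-06), all above every DMSO library of 15 d. Fas stood at 79.1, 80.1 and 74.9 CPM, its highest group (0.93 ± 0.24, adjusted p = 0.00482). Tnfrsf10b stood at 23.3, 27.7 and 27.02 CPM (1.07 ± 0.18, adjusted p = 0.000126) and Aen at 89.1, 90.5 and 98.9 CPM (1.12 ± 0.16, adjusted p = 1.71e-05). Both death receptors passed the test here. Against DMSO for 35 d in place of 15 d, the Tnfrsf10b value was 0.65 (adjusted p = 0.0107). Bbc3 stood at 18.9, 14.98 and 17.7 CPM (0.63 ± 0.17, adjusted p = 0.00803), above every DMSO library, and lost its call without S1_705 (adjusted p = 0.0612). On log2(TPM + 1), Bbc3 (0.42, adjusted p = 0.0934) and Fas (0.75, adjusted p = 0.0621) were not called.

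Bax stood at 161, 150.2 and 148 CPM after irradiation, and DMSO library S2_715 reached into that range. The difference of 0.59 ± 0.28 was not called (adjusted p = 0.114), and was 1.002 and called without that library (adjusted p = 0.00766). Eda2r (0.51 ± 0.20, adjusted p = 0.0531) and Trp53inp1 (0.54 ± 0.25, adjusted p = 0.104) had libraries that did not overlap with DMSO and missed the threshold. Eda2r passed it with DESeq2 (adjusted p = 0.03497), and both passed it with the length trend removed (Eda2r 0.65, Trp53inp1 0.70). Apaf1 gave 0.00025, a value whose sign differed between settings. Set directly against KU60019 for 15 d, irradiated cells differed in 1 member, against 23.6% of all tested genes: Fas was higher after irradiation by 1.38 ± 0.24, adjusted p = 0.000199. The values for the other members in the 2 comparisons share the DMSO libraries of 15 d and stand side by side above. When only these 6 libraries were fitted, 6 members were called. In that fit 7974 of all genes were called, against 4407 in the model of all groups. All 20 proliferation genes and 8 of 10 endothelial markers were lower after irradiation than with DMSO for 15 d, as were 4 of 10 fibroblast markers, and their part was not tested.

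The rest of the pathway is described by lists of related genes. Cdkn1a, the p53 target that arrests the cell cycle, stood at 163 ± 15.9 CPM (SD, n = 3) with DMSO for 15 d, 451 ± 19.8 with KU60019 for 15 d and 1182 ± 187 after irradiation. Its log2 fold change was 1.47 ± 0.18, adjusted p = 3.27e-06 with KU60019 at 15 d, 0.74 ± 0.18, adjusted p = 0.00501 at 35 d and 2.86 ± 0.19, adjusted p = 1.53e-09 after irradiation. Mdm2, the ubiquitin ligase that degrades p53 and is itself a p53 target, changed by 0.93 ± 0.13, adjusted p = 1.28e-05 at 15 d, 0.38 ± 0.13, adjusted p = 0.0396 at 35 d and 1.19 ± 0.13, adjusted p = 6.12e-07 after irradiation. The Mdm2 call at 35 d was lost without any 1 of the 6 libraries (adjusted p 0.06306 to 0.114), with library size alone, without the filter and on both TPM scales (0.023 on log2(TPM + 1)). The RNA of p53 itself, Trp53, was not called with KU60019 at 15 d (0.43 ± 0.25, adjusted p = 0.197) or after irradiation (0.0053 ± 0.25, adjusted p = 0.9902). With KU60019 removed after 15 d it was not called against DMSO removed (-0.58 ± 0.25, adjusted p = 0.0559). It was lower there than with KU60019 for 15 d (-0.99 ± 0.25, adjusted p = 0.00374), compared after the data were seen. The KU60019 effect on Trp53 was lower after removal at 15 d than before it (-1.01 ± 0.35, adjusted p = 0.0376). So were those on Cdkn1a (-1.10 ± 0.25, adjusted p = 0.00329) and Mdm2 (-0.66 ± 0.18, adjusted p = 0.0111). After removal at 15 d neither Cdkn1a (0.37 ± 0.18, adjusted p = 0.0847) nor Mdm2 (0.27 ± 0.13, adjusted p = 0.0807) was called. After removal at 35 d Cdkn1a was called (0.62 ± 0.18, adjusted p = 0.00612) and Mdm2 was not (0.13 ± 0.13, adjusted p = 0.391). Mdm4, another inhibitor of p53, fell by 1.35 on the log2 scale at 15 d.

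Of 29 other p53 targets, all tested, 16 rose and 4 fell with KU60019 at 15 d, 11 rose and 0 fell at 35 d, 7 rose and 6 fell after removal at 15 d, 14 rose and 4 fell after removal at 35 d, and 21 rose and 1 fell after irradiation. All tested genes were called at 30.3%, 18.1%, 48.7%, 48.9% and 30.9% in that order, so the count after removal at 15 d is near the background. The list's median log2 fold change was 0.52, 0.18, 0.12, 0.38 and 0.85 in that order, against medians of all genes between -0.02 and -0.0037. The stress cytokine gene Gdf15 rose by 2.46 ± 0.32 at 15 d, 1.60 ± 0.31 at 35 d, 4.15 ± 0.34 after removal at 35 d and 4.47 ± 0.34 after irradiation. Sesn1, a stress-induced regulator of mTORC1 signalling, fell at 15 d (-1.35 ± 0.17). After removal at 35 d Gadd45a rose (3.995 ± 0.38) and Gtse1 fell (-1.99 ± 0.21).

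**Figure D4:**
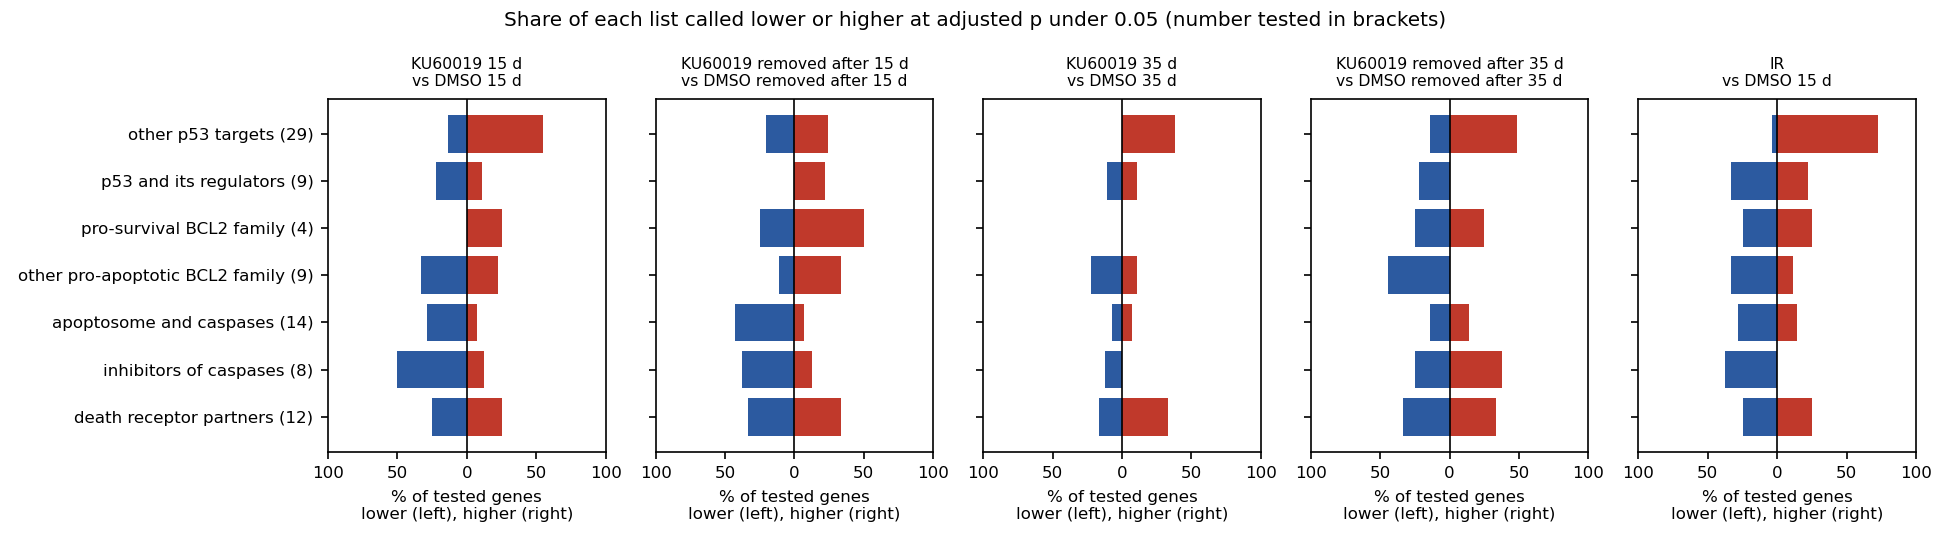
Share of the tested genes of each of 7 pathway lists called lower (bars to the left) or higher (bars to the right) in each of the 5 comparisons with DMSO, in percent of the number tested given in brackets. The list of 29 other p53 targets has 21 genes higher and 1 lower after irradiation and 11 higher and 0 lower with KU60019 for 35 d, whereas bars of most other lists extend both ways.

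The partners of the mitochondrial members did not move one way, and the counts of these smaller lists are to be read against the same shares of all tested genes. Of the other pro-apoptotic BCL2 family genes, 2 higher and 3 lower of 9 tested were called at 15 d of KU60019, 1 higher and 2 lower of 9 at 35 d, 3 higher and 1 lower of 9 after removal at 15 d, 0 higher and 4 lower of 9 after removal at 35 d and 1 higher and 3 lower of 9 after irradiation. The BH3-only gene Bid rose at 15 d (1.47 ± 0.15) and 35 d (1.15 ± 0.15), whereas the BH3-only genes Bmf (-2.505 ± 0.23) and Bcl2l11 (-1.32 ± 0.21) fell at 15 d. After removal at 35 d, Bok (-3.12 ± 0.24) and Bak1 (-1.39 ± 0.17), the relatives of Bax, were lower along with Bax. Of the pro-survival genes, 1 higher and 0 lower of 4 tested were called at 15 d, the gene being Bcl2l1, which encodes BCL-XL (1.32 ± 0.20), 0 higher and 0 lower of 4 at 35 d, 2 higher and 1 lower of 4 after removal at 15 d, 1 higher and 1 lower of 4 after removal at 35 d and 1 higher and 1 lower of 4 after irradiation. After irradiation Bcl2l1 rose (1.18 ± 0.20) and Bcl2 fell (-0.94 ± 0.28), a call lost without S27_716 (adjusted p = 0.0676).

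Among the apoptosome and caspase genes, the partners of Apaf1, 1 higher and 4 lower of 14 tested were called at 15 d, 1 higher and 1 lower of 14 at 35 d, 1 higher and 6 lower of 14 after removal at 15 d, 2 higher and 2 lower of 14 after removal at 35 d and 2 higher and 4 lower of 14 after irradiation. The count after removal at 15 d is near the 48.7% of all tested genes called there, and that after removal at 35 d is below 48.9%. Cycs, which encodes cytochrome c, rose at 15 d (1.13 ± 0.12) and after irradiation (0.89 ± 0.12) and fell after removal at 35 d (-0.56 ± 0.12), a call lost with library size alone (-0.25) and on log2(TPM + 1) (-0.080), while Casp2 fell at 15 d (-0.91 ± 0.18) and 35 d (-0.84 ± 0.18). Of the inhibitors of caspases, 1 higher and 4 lower of 8 tested were called at 15 d, 0 higher and 1 lower of 8 at 35 d, 1 higher and 3 lower of 8 after removal at 15 d, 3 higher and 2 lower of 8 after removal at 35 d and 0 higher and 3 lower of 8 after irradiation. At 15 d Birc2 was lower (-1.18 ± 0.17). Birc5 (survivin), which also serves in mitosis, was lower after removal at 35 d (-5.23 ± 0.25), where all 20 proliferation genes were lower, and after irradiation (-1.72 ± 0.23).

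Of the partners of the death receptors, 3 higher and 3 lower of 12 tested were called at 15 d, 4 higher and 2 lower of 12 at 35 d, 4 higher and 4 lower of 12 after removal at 15 d, 4 higher and 4 lower of 12 after removal at 35 d and 3 higher and 3 lower of 12 after irradiation. The TRAIL receptors without a death domain, Tnfrsf23 and Tnfrsf22, rose at 15 d beside Tnfrsf10b (1.90 ± 0.19 and 1.55 ± 0.19), and Tnfrsf1a, the receptor of tumour necrosis factor, fell (-0.69 ± 0.13). The adaptor gene Fadd was lower after removal at 35 d (-1.26 ± 0.14) and after irradiation (-0.75 ± 0.14). Faim2, an inhibitor of Fas-driven death, was higher after removal at 35 d (2.23 ± 0.42), where Fas was higher too. Of 9 tested autophagy partners of Trp53inp1, 2 rose and 0 fell at 15 d, and 1 rose and 0 fell at 35 d. After removal 3 rose and 1 fell at 15 d, and 4 rose and 3 fell at 35 d. After irradiation 2 rose and 1 fell. Among them Sqstm1, the cargo receptor p62, rose at 15 d (1.21 ± 0.15) and after removal at 35 d (1.34 ± 0.15). Of 9 desmosome partners of Perp only 4 passed the filter. Of these 2 rose and 0 fell both at 15 d and at 35 d, and 3 rose and 0 fell after irradiation. After removal 0 rose and 1 fell at 15 d, and 2 rose and 1 fell at 35 d. Pkp3 rose at 15 d (1.88 ± 0.51, a call lost without S1_705, adjusted p = 0.0555) and 35 d (2.32 ± 0.51).

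The likeness of patterns over the 27 libraries is given as a description, since the 3 libraries of a group share their treatment. Between members, Pearson's r on log2 CPM was highest at 0.899 for Tnfrsf10b and Aen and 0.870 for Pmaip1 and Perp. It was 0.756 for Pmaip1 and Aen, 0.708 for Fas and Trp53inp1, 0.705 for Bax and Tnfrsf10b, 0.694 for Bax and Aen and 0.674 for Perp and Aen. Bax and Trp53inp1 had the lowest, -0.620. Among 10434 other genes with a mean of at least 5 CPM, the most like Bax were Hras (r = 0.975) and Ppp1r14b (0.975), the most like Perp Cystm1 (0.953) and Tpd52l1 (0.940), and the most like Pmaip1 Crct1 (0.932) and Tmem151a (0.931). Fas was most like Ermard (0.928) and Ring1 (0.920), Aen most like Eif2b3 (0.943) and Ptges (0.938), Trp53inp1 most like Rnf114 (0.926) and Fam174a (0.921), and Tnfrsf10b most like Cd44 (0.909). Bbc3 (Wrap73, 0.810, and Lrrc8a, 0.768), Apaf1 (Heatr5a, 0.766, and Supt20, 0.744) and Eda2r (Pafah1b1, 0.675, and Plekha1, 0.669) had less similar genes.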

How the data were processed

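Libraries were made with TruSeq reagents, per the labels. The authors counted reads per gene with featureCounts on mm10, according to the submitters' processing notes, and deposited the raw counts. Aligner, annotation release and strand setting: not given in the sources used here. They also deposited TPM values, which match the counts over 1 length per gene, and the same values for 15372 expressed genes. The counts went into edgeR 4.0.16 under R 4.3.3, with TMM scaling, robust quasi-likelihood fits and filterByExpr at a minimum count of 10, as 1 model of 9 group means with 18 residual degrees of freedom. Calls used Benjamini-Hochberg adjusted p-values under 0.05, by edgeR except where a sentence names DESeq2 or limma. Errors after ± are standard errors for log2 fold changes (the fold change over the square root of F, so approximate) and SDs for levels. Of 14 comparisons, 3 within a treatment arm were added once the values were known. The members and lists were chosen with earlier results of these data known. Named were all members, Cdkn1a, Mdm2 and Trp53, up to 3 called genes of lowest p per list (1 CPM or more in the higher group), and the 2 genes most like each member, 1 of which is not reported here. Positions came from GENCODE M21 and promoters from RefSeq. Alternatives used DESeq2 1.42.0, limma 3.58.1 on log2(TPM + 1) or log2(TPM + 0.1), other scalings and filters, removal of each library's length trend, a replicate block and fits without each library. The test was tried on simulated data. Same-numbered KU60019 and DMSO libraries of 15 d deviated together (r 0.219 to 0.393). In no other comparison was r over 0.1 in every pair; KU60019 removed after 35 d against KU60019 for 35 d came nearest (r 0.0766 to 0.196).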

Additional observations from a re-analysis of the deposited data

Results flagged for a closer look

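The KU60019 effect differed between time points or between the treated and the removed state in 6 cases by the interaction test of edgeR. These were 1 of 10 members at 35 d against 15 d, 1 of 10 after removal at 15 d and 4 of 10 after removal at 35 d, against 11.7%, 25.4% and 32.4% of all tested genes, so no count stands far above the background. The Tnfrsf10b effect was lower at 35 d than at 15 d by -0.79 ± 0.25 on the log2 scale. The Perp effect was lower after removal at 15 d, by -1.87. After removal at 35 d the effect was lower for Bax (-1.44), Pmaip1 (-2.71) and Perp (-1.72) and higher for Fas (1.41). In the 35 d cases the DMSO arm carried much of the difference, with a Pmaip1 change of 3.01 there against 0.30 in the KU60019 arm.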

How the results depend on the processing

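In the comparisons of a treated group with its DMSO group, the following calls of members held under every alternative run. With KU60019 they were Pmaip1 and Perp at 15 and 35 d and Aen at 15 d. After removal they were Bax and Pmaip1 at 15 d and Fas, Trp53inp1, Bax and Perp at 35 d. After irradiation they were Perp, Pmaip1, Tnfrsf10b and Aen. Signs turned under several of the alternatives. With the length trend removed, values were Apaf1 0.10 at 15 d, Bax -0.10 and Tnfrsf10b 0.0011 at 35 d, and Apaf1 0.12, Eda2r 0.10 and Trp53inp1 0.055 after removal at 15 d. With limma on log2(TPM + 0.1) and log2(TPM + 1), values at 35 d were Aen -0.10 and -0.094, Bax -0.32 and -0.32 and Eda2r -0.31 and -0.26. The median of all genes there was -0.39 and -0.33, below each of these values. With limma on log2(TPM + 0.1) and log2(TPM + 1), values after removal at 15 d were Aen -0.25 and -0.24, Bid -0.13 and -0.11, Cdkn1a -0.23 and -0.23, Cop1 -0.018 and -0.017, Fas -0.22 and -0.21, Gabarapl2 -0.0068 and -0.0066, Mcl1 -0.15 and -0.15, Mdm2 -0.30 and -0.29 and Tnfrsf10b -0.30 and -0.27. The median of all genes there was -0.59 and -0.47, below each of these values. With limma on log2(TPM + 0.1) and log2(TPM + 1), values after removal at 35 d were Aen 0.32 and 0.31, Apaf1 0.29 and 0.22, Bbc3 0.36 and 0.32, Bcl2l1 0.062 and 0.061, Eda2r 0.38 and 0.29, Trp53 0.043 and 0.031 and Usp7 0.10 and 0.092. The median of all genes there was 0.44 and 0.33, above each of these values. With limma on log2(TPM + 0.1) and log2(TPM + 1), values after irradiation were Apaf1 -0.15 and -0.14 and Trp53 -0.18 and -0.18. The median of all genes there was -0.19 and -0.17. On the same scales Bbc3 was -0.44 and -0.39 between the DMSO groups after and before removal at 35 d, and Perp 0.042 on log2(TPM + 1) in the removal difference at 35 d. On log2(TPM + 0.1) the median of all genes was -0.88 between the DMSO groups after and before removal at 35 d, against -0.037 in the test on counts. With library size alone, values after removal at 35 d were Aen 0.15, Apaf1 0.10, Bbc3 0.17 and Eda2r 0.23, and after irradiation Apaf1 -0.054 and Trp53 -0.046. With DMSO of 35 d as control, Trp53 was -0.075 after irradiation. Apaf1 after irradiation was -0.0003 with only the groups compared and -0.0006 with the replicate block. Leaving out 1 library at a time gave, at 35 d, Bax -0.12 to 0.24, Bbc3 -0.16 to 0.084, Eda2r -0.11 to 0.19 and Tnfrsf10b -0.13 to 0.029, after removal at 35 d, Aen -0.35 to 0.10, Bbc3 -0.22 to 0.037 and Eda2r -0.14 to 0.065, and after irradiation, Apaf1 -0.20 to 0.13 and Trp53 -0.10 to 0.10. Counts of members called moved as follows. The counts of all genes called moved between settings too, so these counts are not to be read against the shares given above. At 35 d, 5 were called with only the groups compared. For the 35 d against the 15 d effect, with 1 called, DESeq2, the length trend and log2(TPM + 1) gave 2, only the groups compared 3, and no filter, RLE factors and the replicate block 0, with 0 to 2 without 1 library. For the removal effect at 15 d, with 1 called, DESeq2, library size alone and both TPM scales gave 2, with 1 to 2 without 1 library, and at 35 d the range was 4 to 7. Irradiation against KU60019 gave 2 with library size alone and both TPM scales and 6 with only the groups compared, where 7974 of all genes were called. KU60019 removed against before gave at 15 d 3 with library size alone and both TPM scales, 2 with the replicate block and 1 to 2 without 1 library, and at 35 d 2 on both TPM scales, 0 without the filter, 4 with only the groups compared and 0 to 1 without 1 library. The DMSO arm at 15 d gave 0 to 1. The replicate block kept every call with KU60019 at 15 d, where same-numbered libraries deviated together (r 0.219 to 0.393), and called Trp53inp1 at 35 d (0.66, adjusted p = 0.0499). The cause of these changes was not tested. Perp, at under 1 CPM in the DMSO groups of 15 and 35 d, has the least counting precision.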
